A study of Mus musculus with 24 samples.

Results

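Confluent cultures of C2C12, a mouse line of skeletal myoblasts, were compared with the myotube cultures they gave rise to by the second day of differentiation. The comparison took the 3 arrays of Day 2 and the 3 arrays of Day 0, which are 6 of the 24 arrays in the series. On Day 2 the cells had been kept in medium with reduced serum, given as 2% in the sample labels and slightly higher in the study's methods. On Day 0 the cells were at 90% confluency, still in growth medium and not yet induced. All cultures were of this single line, grown as a monolayer without nerve, and no gene was altered in either group. Each array measured total RNA of a culture, so a culture with fewer cells of a kind cannot be told apart from a culture whose cells hold less of an RNA. Whether replicates were grown as separate cultures is not given in the labels, so a p-value here reflects the spread among 6 arrays and nothing more, and part of that spread may be technical.

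Skeletal myoblasts divide while serum is plentiful. When it is withdrawn, the factors of the MyoD family, acting together with the E proteins and the MEF2 factors, turn on the genes of muscle, the cells leave the cell cycle, and membrane proteins of the fusion machinery join them into multinucleate myotubes. Myotubes then assemble sarcomeres, in which thick filaments of myosin slide past thin filaments of actin, and the membrane systems that release calcium to start that sliding. Exit from the cycle is held by inhibitors of the cyclin-dependent kinases and by the retinoblastoma protein, which keeps the E2F factors from activating the genes of DNA replication.

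The deposited value of a probe set is an intensity on a linear scale, to which each array was scaled, and the median of an array lay between 3.63 and 3.81. A value near 2 to 4 is therefore the low end of the scale. Over log2 values, Pearson's r lay between 0.964 and 0.996 for arrays of the same day and between 0.833 and 0.901 for arrays of different days. Day 2 replicate 2 stood apart from the other Day 2 arrays, with r of 0.966 and 0.964 to them against 0.992 between those, and it was the Day 2 array nearest to the Day 0 arrays (0.887 to 0.901). Of the markers listed for differentiated myotubes, 13 of 14 were higher on Day 2, with a summed intensity of 67220 to 72620 on Day 2 and 20910 to 22340 on Day 0. The Day 0 cultures thus already held part of this sum, unevenly over the markers, since Chrna1 averaged 5754 and Myh8 18.4 on Day 0. Of 8 measured markers listed for myoblasts 3 were higher on Day 2 and 1 was lower, against 25.7% and 34.3% of all genes tested. The summed intensity of that list was 23430 to 25870 on Day 2 and 21430 to 23510 on Day 0, so the sum did not fall. It mixed both directions. Ncam1 averaged 2363 on Day 2 and 356 on Day 0, and Itga7 4500 and 2770. Myf5 averaged 485 and 897, and Vim, which did not pass, 10370 and 11760. No marker of blood cells reached an intensity of 100 on either day, and of 11 markers of nerve and endothelial cells only Map2, which encodes a microtubule protein of neurons, was measured.

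Log2 intensities were compared with the moderated t of limma. The test covered 12783 probe sets, those averaging 100 or more on either day. A difference is the Day 2 mean minus the Day 0 mean on the log2 scale, given with its SE, and a probe set passed when its p, adjusted by Benjamini-Hochberg over all of them, was under 0.05. Of the probe sets, 2842 (22.2%) were higher on Day 2 and 3701 (29%) were lower. A gene with several probe sets was counted by the one of largest absolute t, a choice that favours large changes. On that basis 1923 of 7488 genes (25.7%) were higher on Day 2 and 2569 (34.3%) were lower, and the median difference over all genes was -0.13. More genes fell than rose, but the large differences were rises. A difference of at least 1 was passed by 646 genes upward and 581 downward, a difference of at least 2 by 227 upward and 46 downward, and a difference of at least 3 by 95 upward and 7 downward. At the other end, the 95% confidence interval of 2167 genes lay within a 1.5-fold change in either direction. The values of the 3 arrays of Day 2 did not overlap those of Day 0 for 5183 genes (69.2%) and 7845 probe sets (61.4%).

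**Figure D1:**
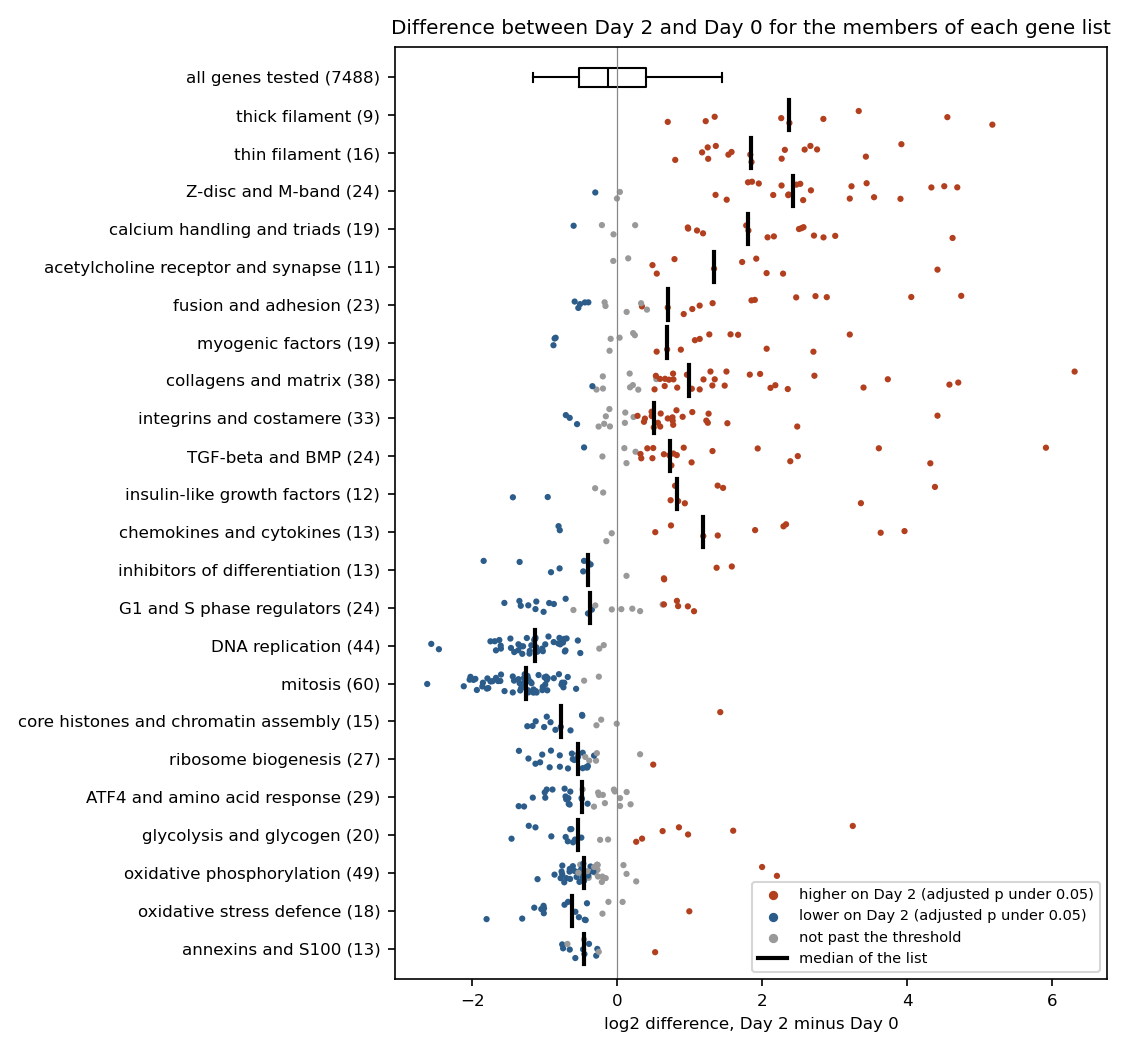
Log2 difference (Day 2 minus Day 0) of every measured member of 23 gene lists, with red points higher on Day 2, blue points lower, grey points not past the threshold and a black bar at each list's median. The box at the top gives the quartiles of all 7488 genes and its whiskers the range from their 5th to their 95th percentile. The called genes of the sarcomere lists lie to the right of zero except 1 of the Z-disc and M-band, and those of DNA replication and mitosis all lie to the left.

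Among the transcription factors of muscle, Myog and the MEF2 genes were higher on Day 2, Myf5 was lower, and Myod1 did not pass. Of 19 measured factors, 11 were higher and 3 lower, against 25.7% and 34.3% of all genes. Their median difference was 0.69. With no minimum intensity, 10 of 24 were higher and the median was 0.27. Myog (Entrez 17928), the MyoD family member that drives terminal differentiation, had intensities of 8788, 8139 and 8039 on Day 2 and 2698, 2577 and 2588 on Day 0 (difference 1.67, SE 0.10, adjusted p = 1.46e-05). The lowest Day 2 array was close to 3 times the highest Day 0 array. Mef2c (Entrez 17260), whose product is a partner of the MyoD family at muscle promoters, stood at 366, 267 and 322 on Day 2 and at 48.9, 56.4 and 41.3 on Day 0 (difference 2.70, SE 0.16, adjusted p = 1.55e-05). Its relatives moved the same way by less. Mef2a averaged 2793 ± 260 on Day 2 and 1327 ± 34.9 on Day 0 (SD, n = 3), and Mef2d 752 ± 111 and 311 ± 34.4.

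Myod1 (Entrez 17927), which commits cells to muscle, averaged 1024 ± 103 on Day 2 and 863 ± 22.7 on Day 0 (SD, n = 3). All 3 of its Day 2 arrays lay above the Day 0 arrays, yet the difference of 0.24 (95% confidence interval -0.01 to 0.50) missed the threshold at an adjusted p of 0.0974. Myf5 (Entrez 17877), the family member typical of dividing myoblasts, had 457, 526 and 472 on Day 2 and 806, 841 and 1044 on Day 0, without overlap (difference -0.88, SE 0.13, adjusted p = 0.00122). Tcf3, which encodes the E proteins E12 and E47, fell to 221 ± 10.2 on Day 2, against 404 ± 50.8 on Day 0. Vgll2, a cofactor of the TEAD factors in muscle, fell to 1568 ± 184 on Day 2, against 2815 ± 105 on Day 0. Myf6, the family member of mature fibres, did not reach an intensity of 100 on either day.

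The measured genes of the sarcomere rose, with few exceptions. All 9 measured genes of the thick filament and all 16 of the thin filament were higher on Day 2, as were 21 of 24 of the Z-disc and M-band, with medians of 2.37, 1.84 and 2.42. These counts read against 25.7% of all genes, and they were 9, 16 and 21 again whichever single array was left out. In a fit of all 24 arrays, and with the brightest probe set of each gene, the thin filament had 15 higher and 1 lower, since the brightest probe set of Tpm3, a tropomyosin gene, fell to 4198 on Day 2, against 5445 on Day 0. Myh3 (Entrez 17883), the embryonic myosin heavy chain, had 12480, 9319 and 11490 on Day 2 and 987, 1327 and 1006 on Day 0, a 10.1-fold difference (log2 3.33, SE 0.16, adjusted p = 7.19e-06). No Day 2 array of Myh3 came near the Day 0 range. Myh7 (Entrez 140781), the heavy chain of slow fibres and heart, had 642, 368 and 431 on Day 2 and 9.59, 17.6 and 12.9 on Day 0. Its difference of 5.17 (SE 0.26, adjusted p = 8.28e-06) shrank to 3.22 when values below 50 were raised to 50, because the Day 0 values lie near the low end of the scale. Myh8, the perinatal heavy chain, averaged 131 ± 31.3 on Day 2 and 18.4 ± 4.70 on Day 0 (SD, n = 3).

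The light chain gene Myl4, which serves embryonic muscle and the atria, had 6830, 7235 and 6259 on Day 2 and 1309, 1406 and 1210 on Day 0 (difference 2.37, SE 0.11, adjusted p = 6.15e-06). Mybph, a myosin-binding protein, averaged 9229 ± 394 on Day 2 and 1931 ± 183 on Day 0. Among the thin filament genes, Tnnt2, the troponin T of heart and embryonic skeletal muscle, averaged 10260 ± 484 on Day 2 and 2131 ± 27.0 on Day 0. Lmod3, which nucleates actin filaments in skeletal muscle, averaged 1638 ± 138 on Day 2 and 243 ± 19.1 on Day 0. Acta1, the actin of adult skeletal muscle, was already bright before induction, with 11290 ± 341 on Day 2 and 5026 ± 335 on Day 0 and a difference of 1.17 (SE 0.10, adjusted p = 9.50e-05).

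In the Z-disc, Csrp3, a LIM protein and cofactor of MyoD, had 508, 702 and 490 on Day 2 and 57.1, 66.9 and 58.3 on Day 0 (difference 3.21, SE 0.16, adjusted p = 7.37e-06). Klhl41 and Klhl40, kelch proteins that stabilise thin filament proteins, averaged 4946 ± 134 and 398 ± 30.8 on Day 2 and 1030 ± 65.4 and 77.7 ± 2.59 on Day 0. Trim63, a ubiquitin ligase of the M-band, averaged 253 ± 14.8 on Day 2 and 27.4 ± 6.11 on Day 0. Pdlim3, which tethers alpha-actinin, was the 1 member that fell, to 2118 ± 70.2 on Day 2 against 2614 ± 91.2 on Day 0, and its adjusted p of 0.0306 moved to between 0.0738 and 0.125 when any array other than Day 2 replicate 2 was left out. Ankrd1, a titin-binding repressor in the same list, averaged 6838 ± 187 on Day 2 and 6671 ± 168 on Day 0, with an adjusted p of 0.771.

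The genes of calcium release and of the nerve-muscle synapse followed, with exceptions that were high before induction. Of 19 measured genes of calcium handling, 15 were higher and 1 lower (median 1.81), against 25.7% and 34.3% of all genes. Of 11 measured genes of the acetylcholine receptor and synapse 9 were higher and none was lower (median 1.33). With no minimum intensity, 17 of 25 calcium genes (median 1.78) and 9 of 16 synapse genes (median 0.515) were higher. Without Day 0 replicate 3, 8 of the 11 synapse genes were higher. Ryr1, the calcium release channel of skeletal muscle, had 1700, 1266 and 1427 on Day 2 and 186, 204 and 156 on Day 0 (difference 3.00, SE 0.15, adjusted p = 7.38e-06). Casq2, a calcium-storing protein of the sarcoplasmic reticulum, averaged 5990 ± 213 on Day 2 and 916 ± 68.4 on Day 0, and Srl, sarcalumenin, 2898 ± 143 and 404 ± 18.2. The exception was Fkbp1a, the immunophilin that binds the release channel and is found in all cells, at 1704 ± 148 on Day 2 and 2588 ± 262 on Day 0 (difference -0.60, adjusted p = 0.00482).

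Of the receptor subunits, Chrng (Entrez 11449), the gamma subunit of fetal muscle, had 2171, 2203 and 2099 on Day 2 and 438, 467 and 422 on Day 0, 4.88-fold apart (log2 2.29, SE 0.10, adjusted p = 5.50e-06). Chrna1, the alpha subunit, was among the brightest genes of the list on both days, with 6385 ± 126 on Day 2 and 5754 ± 138 on Day 0, without passing (difference 0.15, 95% confidence interval -0.07 to 0.37, adjusted p = 0.208). Chrne, the subunit that replaces gamma in adult muscle, did not reach 100 on either day. Cav3, the caveolin of muscle membranes, averaged 185 ± 55.8 on Day 2 and 8.85 ± 3.39 on Day 0, and Ank1, an ankyrin, 657 ± 57.4 and 199 ± 15.3.

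The promoters of Chrng and Klhl41 are shown because MyoD family proteins bind E-boxes and MEF2 proteins bind A/T-rich sites, and both genes rose here. Each is a window of 300 bases around the annotated start of the gene from RefSeq (build GRCm38.p6), printed in the direction of transcription, with capitals for matches to the E-boxes CAGCTG and CAGGTG or to a MEF2 pattern (CTA, any 4 letters, TAG) on either strand. The window of Chrng lies at chr1:87205561-87205860 and that of Klhl41 at chr2:69669870-69670169, both on the plus strand.
Chrng: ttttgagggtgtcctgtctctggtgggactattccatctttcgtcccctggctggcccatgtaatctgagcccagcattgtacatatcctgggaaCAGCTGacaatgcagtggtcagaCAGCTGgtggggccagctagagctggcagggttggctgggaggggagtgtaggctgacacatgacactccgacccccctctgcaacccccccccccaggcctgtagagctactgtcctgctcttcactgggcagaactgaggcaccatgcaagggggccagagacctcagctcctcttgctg
Klhl41: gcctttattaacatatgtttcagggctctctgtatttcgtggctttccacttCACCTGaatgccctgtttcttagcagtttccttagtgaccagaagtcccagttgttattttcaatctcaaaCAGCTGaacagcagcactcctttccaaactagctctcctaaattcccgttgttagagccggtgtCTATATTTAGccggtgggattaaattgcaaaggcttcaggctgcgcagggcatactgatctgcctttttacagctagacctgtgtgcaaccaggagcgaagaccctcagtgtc
The 2 E-boxes of Chrng begin 155 and 132 bases before the start, and Klhl41 holds an E-box of each kind besides a MEF2 match. Of the 50 windows of measured sarcomere genes (42 of these genes have a window in the table), 38% held CAGCTG, 60% held either E-box and 16% held the MEF2 pattern. Of the 7946 windows of all genes tested, 14.2% held CAGCTG, 27.6% either E-box and 2.91% the MEF2 pattern, and over all 32851 promoters these shares were 16.3%, 32.9% and 3.69%. Of the 13 windows of calcium handling genes, 61.5% held CAGCTG and none the MEF2 pattern. A match is a string of letters in the window and was not tested for binding.

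Both genes of the fusion machinery rose, and the list of fusion and adhesion genes as a whole was mixed. Of 23 measured members, 13 were higher and 5 lower on Day 2, against 25.7% and 34.3% of all genes, with a median of 0.70. Without Day 2 replicate 1 the median was 0.46 with 10 higher, and over the 19 members at a level of at least 200 it was 0.34 with 9 higher. Mymk (Entrez 66139), the membrane protein myomaker, had 3240, 3745 and 2827 on Day 2 and 881, 933 and 890 on Day 0 (difference 1.85, SE 0.13, adjusted p = 2.83e-05). Mymx (Entrez 653016), myomixer, which completes fusion after myomaker, had 4152, 5203 and 3739 on Day 2 and 822, 805 and 723 on Day 0 (difference 2.47, SE 0.14, adjusted p = 1.36e-05). For both genes the highest Day 2 value was on replicate 2, and no Day 2 array came near the Day 0 range. Ncam1, a cell adhesion molecule that is also among the listed myoblast markers, averaged 2363 ± 279 on Day 2 and 356 ± 41.3 on Day 0. Dysf, the membrane repair protein dysferlin, stood at 129, 90.0 and 101 on Day 2 and between 3.70 and 4.37 on Day 0, so that its difference of 4.74 became 1.08 with values below 50 raised to 50. Jam2, a junctional adhesion molecule, and Ehd2, which acts at caveolae, fell to 82.6 ± 2.84 and 812 ± 31.8 on Day 2, against 124 ± 4.92 and 1161 ± 89.1 on Day 0.

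The genes of mitosis fell almost without exception. Of 60 measured members 58 were lower on Day 2 and none was higher, against 34.3% of all genes lower, with a median difference of -1.26. The count lay between 55 and 59 when any array was left out. Cdk1 (Entrez 12534), the kinase that starts mitosis, had 608, 976 and 903 on Day 2 and 2072, 2486 and 2638 on Day 0 (difference -1.55, SE 0.19, adjusted p = 0.000505). Ccnb2 (Entrez 12442), a cyclin that activates it, had 236, 339 and 344 on Day 2 and 996, 1050 and 1108 on Day 0 (difference -1.80, SE 0.16, adjusted p = 0.000102). In both genes the lowest value was on Day 2 replicate 1, and the groups were far apart. Hmmr, a spindle protein, fell to 79.2 ± 12.2 on Day 2, against 312 ± 44.9 on Day 0, and Cdc25c, the phosphatase that activates Cdk1, to 21.3 ± 5.31, against 129 ± 17.8. Foxm1, which activates many of these genes, fell to 61.5 ± 18 on Day 2, against 147 ± 7.21 on Day 0.

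Top2a, the topoisomerase that untangles chromosomes, had 616, 479 and 777 on Day 2 and 989, 1250 and 1144 on Day 0 (difference -0.88, SE 0.18, adjusted p = 0.00586). Mki67, which encodes the proliferation antigen Ki-67, was 1 of the 2 members that did not pass, with 382, 203 and 471 on Day 2 and 404, 404 and 380 on Day 0. Only Day 2 replicate 2 lay clearly below the Day 0 arrays of Mki67, and the difference of -0.25 (95% confidence interval -0.89 to 0.38, adjusted p = 0.459) became 0.10 without that array.

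The genes of DNA replication fell as a group as well. Of 44 measured members 42 were lower and none was higher (median -1.13), against 34.3% and 25.7% of all genes. Between 38 and 42 were lower when any array was left out. Mcm5 (Entrez 17218), a subunit of the replicative helicase, had 155, 128 and 240 on Day 2 and 410, 377 and 412 on Day 0 (difference -1.25, SE 0.21, adjusted p = 0.00230). Rfc3 and Rfc4, subunits of the clamp loader, fell to 114 ± 13.3 and 104 ± 20.1 on Day 2, against 291 ± 12.1 and 332 ± 8.43 on Day 0. Rrm2, a subunit of ribonucleotide reductase, which makes the DNA precursors, had 525, 488 and 711 on Day 2 and 894, 945 and 970 on Day 0 (difference -0.72, adjusted p = 0.00585). Among 15 genes of histones and chromatin assembly 11 were lower and 1 higher. The 1 that rose was H1f2, a linker histone, at 1967 ± 83.9 on Day 2 and 735 ± 38.8 on Day 0. Nasp, a histone chaperone, fell to 223 ± 33.4 on Day 2, against 483 ± 17.1 on Day 0.

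Windows are shown for Cdk1, Ccnb2 and Top2a because mitotic genes are known for CCAAT boxes, bound by NF-Y, together with the cell cycle genes homology region (CHR, TTTGAA), at which the DREAM complex represses them in resting cells. Windows are shown for Mcm5 and Rfc3 because genes of replication are known for E2F sites, searched here with 3 strings, of which the first was TTCCCGC, the second was TTGGCGC and the last was TTCGCGC. All are 300 bases from RefSeq (GRCm38.p6), read in the direction of transcription, with matches on either strand in capitals (CCAAT and TTTGAA in the first 3, E2F letters in the others). They lie at chr10:69352863-69353162 (Cdk1, minus strand), chr9:70421505-70421804 (Ccnb2, minus), chr11:99024140-99024439 (Top2a, minus), chr8:75109259-75109558 (Mcm5, plus) and chr5:151651159-151651458 (Rfc3, minus).
Cdk1: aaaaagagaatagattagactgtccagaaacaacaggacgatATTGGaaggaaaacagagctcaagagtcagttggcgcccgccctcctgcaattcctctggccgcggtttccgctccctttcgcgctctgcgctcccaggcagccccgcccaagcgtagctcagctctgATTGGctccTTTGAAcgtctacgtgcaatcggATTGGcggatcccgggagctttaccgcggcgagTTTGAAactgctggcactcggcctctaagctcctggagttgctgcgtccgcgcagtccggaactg
Ccnb2: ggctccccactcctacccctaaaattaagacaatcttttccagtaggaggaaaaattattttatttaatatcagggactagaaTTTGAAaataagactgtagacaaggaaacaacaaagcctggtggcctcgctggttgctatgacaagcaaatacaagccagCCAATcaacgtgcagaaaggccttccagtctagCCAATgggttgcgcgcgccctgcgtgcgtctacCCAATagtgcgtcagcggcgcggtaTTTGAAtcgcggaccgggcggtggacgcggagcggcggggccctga
Top2a: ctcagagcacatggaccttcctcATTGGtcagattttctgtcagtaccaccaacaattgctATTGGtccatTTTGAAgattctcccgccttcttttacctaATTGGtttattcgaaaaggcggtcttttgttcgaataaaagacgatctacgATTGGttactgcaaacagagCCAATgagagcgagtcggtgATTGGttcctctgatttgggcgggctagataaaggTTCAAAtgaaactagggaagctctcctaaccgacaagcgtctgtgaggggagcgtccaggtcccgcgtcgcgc
Mcm5: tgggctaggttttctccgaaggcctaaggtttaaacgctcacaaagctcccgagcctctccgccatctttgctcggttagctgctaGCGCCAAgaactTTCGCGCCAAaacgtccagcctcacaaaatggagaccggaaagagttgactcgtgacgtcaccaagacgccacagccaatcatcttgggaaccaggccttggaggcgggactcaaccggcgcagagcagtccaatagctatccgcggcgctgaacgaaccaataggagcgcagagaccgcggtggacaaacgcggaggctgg
Rfc3: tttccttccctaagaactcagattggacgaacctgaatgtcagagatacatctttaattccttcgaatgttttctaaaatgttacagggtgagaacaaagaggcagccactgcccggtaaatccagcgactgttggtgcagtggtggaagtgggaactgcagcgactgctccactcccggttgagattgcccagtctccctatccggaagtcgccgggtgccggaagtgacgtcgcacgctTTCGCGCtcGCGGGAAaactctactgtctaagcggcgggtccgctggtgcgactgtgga
Ccnb2 holds 3 CCAAT boxes in the same orientation before its start and a TTTGAA that begins at base 5 after it, and Top2a holds 6 CCAAT boxes. Of 57 windows of measured mitosis genes (51 of these genes have a window), 78.9% held CCAAT and 64.9% held TTTGAA, against 37.3% and 11.7% of the 7946 windows of all genes tested and 37.4% and 17.9% of all 32851 windows. Any of the E2F strings stood in 19.3% of them. Of 44 windows of measured replication genes (36 with a window), 56.8% held an E2F string and 13.6% TTTGAA. An E2F string stood in 14.9% of the windows of all genes tested and in 8.07% of all windows. CCAAT stood in 56.8% of the replication windows too, so it was not confined to the mitosis list. Letters left unmarked above include CCAAT in Mcm5 and both TTGGCGC and TTCGCGC in Cdk1. The letters TTGGCGC and TTCGCGC can overlap, as they do in Mcm5. The shares describe the lists and were not tested.

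Of 24 measured regulators of G1 and S phase, 12 were lower and 5 higher on Day 2, against 34.3% and 25.7% of all genes. A further 7 did not pass. Ccnd1 (Entrez 12443), cyclin D1, which serum induces, had 263, 379 and 376 on Day 2 and 776, 899 and 854 on Day 0 (difference -1.33, SE 0.16, adjusted p = 0.000459). Ccnd3 (Entrez 12445), the D cyclin of differentiating muscle, had 3107, 3181 and 3063 on Day 2 and 1459, 1598 and 1717 on Day 0 (difference 0.97, SE 0.10, adjusted p = 0.000264). The 2 D cyclins thus moved apart, each without overlap between days. Ccna2, cyclin A2, fell to 265 ± 58.5 on Day 2, against 770 ± 78.4 on Day 0. E2f1 and Myc, factors that promote entry into S phase, fell to 118 ± 25.9 and 306 ± 12.6 on Day 2, against 214 ± 14.4 and 670 ± 15.9 on Day 0. Cdk2, the kinase partner of cyclins E and A, instead rose to 502 ± 39.0 on Day 2, against 280 ± 10.9 on Day 0.

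Of 17 inhibitors of cyclin-dependent kinases, pocket proteins and related growth arrest genes, 8 were higher and 2 lower on Day 2, against 25.7% and 34.3% of all genes, and when 1 array was left out 8 to 9 were higher and 0 to 3 lower (none lower without replicate 1 of Day 2 and likewise without replicate 2 or 3 of Day 0). Cdkn1a (Entrez 12575), the inhibitor p21 that MyoD induces, had 2073, 2946 and 2066 on Day 2 and 1118, 1238 and 1269 on Day 0 (difference 0.95, SE 0.16, adjusted p = 0.00197). Rb1 (Entrez 19645), the retinoblastoma gene, had 1657, 1211 and 1501 on Day 2 and 569, 554 and 607 on Day 0 (difference 1.33, SE 0.13, adjusted p = 0.000212). Gas1, a growth arrest gene of the cell surface, averaged 749 ± 13.6 on Day 2 and 192 ± 21.8 on Day 0. Cdkn2d, the inhibitor p19, was at 224 on Day 2 and 288 on Day 0 and passed with all arrays (adjusted p = 0.0248) but not without Day 2 replicate 1 or any of the Day 0 arrays (0.0661 to 0.0912).

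The list of genes that restrain myogenic factors, in which Hes6 is counted though it acts the other way, gave no common direction. Of 13 measured members 7 were lower and 4 higher, against 34.3% and 25.7% of all genes. The number lower was 2 without Day 0 replicate 2 and 3 without Day 2 replicate 1 or Day 0 replicate 3. Msc, musculin, which competes with MyoD for E proteins, had 50.4, 49.7 and 81.6 on Day 2 and 228, 201 and 206 on Day 0 (difference -1.84, SE 0.19, adjusted p = 0.000248). Hey1, a Notch target, fell to 51.8 ± 14.1 on Day 2, against 130 ± 23.6 on Day 0. Id2, which binds E proteins and keeps them from DNA, had 96.8, 181 and 80.1 on Day 2 and 202, 178 and 203 on Day 0 (difference -0.80, adjusted p = 0.0397). Day 2 replicate 2 overlapped the Day 0 arrays of Id2, and the call was lost without any 1 of the other arrays. Zeb1, a repressor of E-box genes, and Hes6, an antagonist of Hes1 that promotes myogenesis, were higher, with 1412 ± 93.3 and 600 ± 134 on Day 2 and 546 ± 10.2 and 198 ± 24.2 on Day 0.

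**Figure D2:**
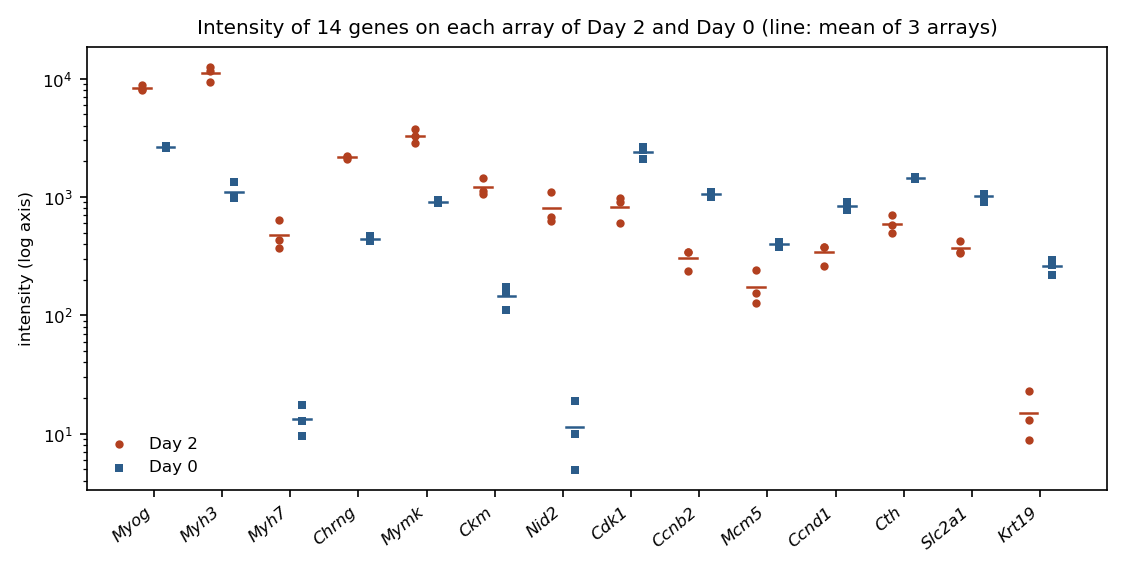
Intensity (log axis) of 14 genes on each array, with circles for the 3 arrays of Day 2, squares for the 3 arrays of Day 0 and a line at each mean. Myog, Myh3, Myh7, Chrng, Mymk, Ckm and Nid2 stand higher on Day 2, and Cdk1, Ccnb2, Mcm5, Ccnd1, Cth, Slc2a1 and Krt19 lower, with no overlap between the days for any of the 14. The days did not overlap for 69.2% of all genes tested, and Myh7, Nid2 and Krt19 were named by a rule that required this.

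Several proteins exist in a form made by differentiated muscle and a form made by many cell types, and for most of these pairs the form of muscle rose while the other fell or did not pass. The pairs were set side by side after their values were seen. Both forms were tested for 11 of 14 pairs, and the muscle form had the higher difference in all 11. The difference between the forms was itself not tested. Ckm, the muscle creatine kinase, which buffers ATP, had 1116, 1446 and 1053 on Day 2 and 154, 173 and 111 on Day 0 (difference 3.05, SE 0.19), whereas Ckb, the brain form, had 108, 144 and 97.6 on Day 2 and 200, 214 and 239 on Day 0 (difference -0.91, SE 0.16). Pygm, the muscle glycogen phosphorylase, averaged 119 ± 6.42 on Day 2 and 12.5 ± 1.21 on Day 0, and its difference of 3.25 was 1.25 with values below 50 raised to 50. Pygb, the broadly expressed form, had a difference of -0.13 (95% confidence interval -0.37 to 0.12) and did not pass.

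Phosphofructokinase, the committing enzyme of glycolysis, gave 1.60 for the muscle form Pfkm (1.34 to 1.86) and -1.13 for the liver form Pfkl (-1.43 to -0.83). Subunit 6a of cytochrome c oxidase gave 2.00 for Cox6a2 (1.39 to 2.61) and -0.87 for Cox6a1 (-1.25 to -0.48), and subunit 8 gave 2.20 for Cox8b and -0.66 for Cox8a. Cofilin, which severs actin filaments, gave 0.86 for the muscle form Cfl2 (0.60 to 1.13) and -1.10 for Cfl1 (-1.59 to -0.62). Hexokinase gave 0.63 for Hk2 and -1.22 for Hk1. The pattern was not universal. The calcium pump rose in both forms, by 2.51 for Atp2a1 and 2.07 for Atp2a2, whose intervals overlap, and the ADP/ATP carriers Slc25a4 and Slc25a5 both fell, by 0.52 and 0.65.

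**Figure D3:**
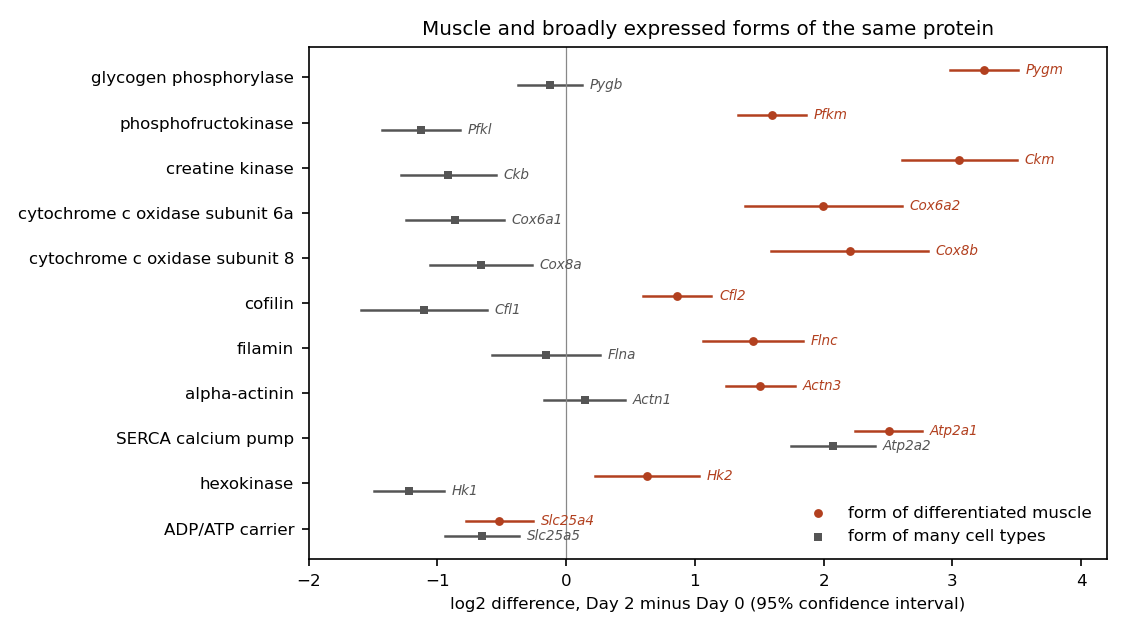
Log2 difference (Day 2 minus Day 0) with its 95% confidence interval for 11 proteins, circles for the form of differentiated muscle and squares for the form of many cell types. The circle lies to the right of the square in each pair, and the intervals of the pair overlap for the calcium pump and for the ADP/ATP carrier.

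The lists of energy metabolism were mixed, and several of their counts moved when 1 array was left out. Among all genes tested, 25.7% were higher and 34.3% lower on Day 2. Of 20 genes of glycolysis and glycogen 11 were lower and 7 higher (median -0.54), and the 7 became 3 without Day 0 replicate 3 and 4 without any of Day 2 replicate 1, Day 2 replicate 3 or Day 0 replicate 1. Slc2a1, the glucose transporter of growing cells, had 340, 339 and 427 on Day 2 and 903, 1062 and 1064 on Day 0 (difference -1.46, SE 0.13, adjusted p = 0.000118). Of 49 genes of oxidative phosphorylation 26 were lower and 2 higher (median -0.46). The 2 that rose were Cox6a2 and Cox8b. The number lower was 42 without Day 2 replicate 2, 17 without Day 0 replicate 1, 9 without Day 2 replicate 3 and 8 without any of Day 2 replicate 1, Day 0 replicate 2 or Day 0 replicate 3, while the median of the list stayed between -0.61 and -0.35. Of 32 genes of the TCA cycle and fatty acid oxidation 8 were higher and 8 lower (median -0.09), shares no larger than those of all genes. When 1 array was left out, 3 to 9 were higher and 4 to 14 lower. Of 9 genes of energy buffering 3 were higher and 1 lower (median 0.18). Of the oxidative phosphorylation genes that fell, Sdhb, a subunit of succinate dehydrogenase, had 915, 1241 and 956 on Day 2 and 1616, 1798 and 1811 on Day 0 (difference -0.76, adjusted p = 0.00317).

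The factor ATF4 drives the response to amino acid shortage. Of 29 genes of that response 17 were lower on Day 2, none was higher and 12 did not pass (median -0.49), against 34.3% of all genes lower. Cth (Entrez 107869), which makes cysteine, had 495, 584 and 698 on Day 2 and 1466, 1411 and 1415 on Day 0 (difference -1.29, SE 0.14, adjusted p = 0.000262). Shmt2 and Pck2, mitochondrial enzymes of serine and of phosphoenolpyruvate synthesis, fell to 1668 ± 97.0 and 1239 ± 75.7 on Day 2, against 3319 ± 154 and 1969 ± 47.0 on Day 0. Of 27 genes of ribosome biogenesis 21 were lower and 1 higher (median -0.54). Nop56, a protein of the nucleolar RNA-modifying particles, fell to 446 ± 25.9 on Day 2, against 915 ± 80.9 on Day 0. Of 18 genes of oxidative stress defence 14 were lower and 1 higher, and 9 were lower without Day 0 replicate 2. Gsta4, a glutathione transferase, had 1064, 1668 and 1288 on Day 2 and 4629, 4450 and 4707 on Day 0 (difference -1.80, SE 0.16, adjusted p = 0.000115). The 1 that rose was Txnip, an inhibitor of thioredoxin, at 1301 ± 198 on Day 2 and 649 ± 35.5 on Day 0.

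The extracellular matrix formed a second group of large rises. Of 38 measured collagens and other matrix genes 29 were higher and 1 lower on Day 2, against 25.7% and 34.3% of all genes. The median of the list was 0.99. Nid2 (Entrez 18074), nidogen 2, which links laminin to collagen IV in basement membranes, had 1109, 624 and 671 on Day 2 and 10.0, 19 and 4.94 on Day 0. Its difference of 6.31 (SE 0.45, adjusted p = 3.39e-05) was the largest of all genes tested, and it was 3.95 with values below 50 raised to 50. Col6a2, a chain of the collagen VI that surrounds muscle fibres, had 1318, 927 and 1037 on Day 2 and 52.6, 51.9 and 34.0 on Day 0 (difference 4.58, SE 0.20, adjusted p = 5.70e-06). Postn, periostin, averaged 297 ± 41.0 on Day 2 and 11.5 ± 2.14 on Day 0 (4.70, and 2.56 with values below 50 raised). Col3a1 and Col1a1, chains of fibrillar collagens, averaged 3578 ± 388 and 611 ± 172 on Day 2 and 790 ± 87.5 and 271 ± 32.8 on Day 0. Sparc, a matrix glycoprotein of similar brightness on both days, averaged 6522 ± 287 on Day 2 and 5797 ± 333 on Day 0, with an adjusted p of 0.189.

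Markers of fibroblasts moved with these matrix genes. All 5 of the 11 listed markers that were measured were higher on Day 2, and the summed intensity of the list was 8536 to 10650 on Day 2 and 1727 to 1847 on Day 0. Col1a1, Col3a1 and Dcn are in both lists, and the others, named after their values were seen, were Pdgfra and Pdgfrb, receptors of platelet-derived growth factor, at 101 and 2318 on Day 2 and 11.3 and 208 on Day 0. The markers Thy1, Dpt, Tcf21 and Pi16 were at 2 to 4 on both days, near the low end of the scale, and Lum and Fap did not reach 100. Dcn, the proteoglycan decorin, had 2528, 2746 and 2359 on Day 2 and 473, 521 and 501 on Day 0 (difference 2.35, SE 0.11, adjusted p = 5.70e-06). The part of other cell types in the rise of the matrix was not tested. Among 13 matrix proteases and inhibitors 6 were higher and 5 lower, against 25.7% and 34.3% of all genes. Adamts5 and Mmp2, proteases of proteoglycans and of denatured collagen, averaged 1102 ± 213 and 2651 ± 424 on Day 2 and 56.4 ± 13.7 and 562 ± 34.2 on Day 0, and Plaur, the urokinase receptor, fell to 240 ± 51.4 on Day 2, against 937 ± 36.5 on Day 0. Of 33 measured genes of integrins and the costamere, which ties sarcomeres to the membrane, 22 were higher and 3 lower. Dtna, a dystrobrevin of the dystrophin complex, averaged 143 ± 7.25 on Day 2 and 25.7 ± 2.58 on Day 0.

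Several ligands and their partners were measured. Of 12 genes of the insulin-like growth factor system 8 were higher and 2 lower on Day 2, against 25.7% and 34.3% of all genes. Igf2 (Entrez 16002), the autocrine growth factor of differentiating myoblasts, had 764, 1151 and 528 on Day 2 and 84.1, 76.9 and 66.3 on Day 0 (difference 3.36, SE 0.26, adjusted p = 5.24e-05). Igfbp2 and Igfbp6, binding proteins for it, were the 2 that fell, to 3179 ± 441 and 1093 ± 201 on Day 2, against 8577 ± 567 and 2107 ± 164 on Day 0. Other binding proteins, named after their values were seen, did not share that direction, since Igfbp4 and Igfbp7 were higher, by 0.84 and 0.80, and Igfbp5 did not pass (adjusted p = 0.0914). The call of Igfbp7 was lost without Day 2 replicate 1 or any 1 of the Day 0 arrays (adjusted p of 0.0681 to 0.108 in limma), and those of Igfbp4 and Igfbp7 in a fit of all 24 arrays (0.0569 and 0.0538). Mest, an imprinted gene expressed in mesoderm, averaged 134 ± 46.2 on Day 2 and 6.25 ± 0.69 on Day 0 (4.38, and 1.38 with values below 50 raised to 50). Of 24 genes of the TGF-beta and BMP pathways 19 were higher and 1 lower (median 0.73), against the same shares of all genes. Bmp4, a ligand that opposes myogenesis in the embryo, had 259, 304 and 95.3 on Day 2 and 3.23, 3.27 and 3.26 on Day 0 (difference 5.91, and 1.97 with values below 50 raised to 50). Inhbb, an activin subunit, averaged 1035 ± 175 on Day 2 and 52.6 ± 12.4 on Day 0, and Fst, follistatin, which binds activins, averaged 125 ± 20.3 on Day 2 and 10.3 ± 2.29 on Day 0.

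Of 13 measured chemokines, cytokines and related genes 9 were higher and 2 lower on Day 2, with a median of 1.19. Cxcl12 (Entrez 20315), a chemokine that guides CXCR4-bearing myoblasts, had 2355, 2377 and 1710 on Day 2 and 150, 138 and 122 on Day 0, 15.6-fold apart (log2 3.96, SE 0.16, adjusted p = 4.44e-06). Cxcl5, which attracts neutrophils, averaged 424 ± 113 on Day 2 and 33.8 ± 6.91 on Day 0. The immediate early and AP-1 genes, many of which serum induces, were lower for 15 of 28 and higher for 8, against 34.3% and 25.7% of all genes. Fosl1, an AP-1 subunit, fell to 49.6 ± 8.72 on Day 2, against 181 ± 17.6 on Day 0, and Egr3, which the synapse and muscle spindles depend on, rose to 404 ± 51.3, against 34.7 ± 9.50. Rbm24, an RNA-binding protein that directs muscle splicing, averaged 199 ± 42.8 on Day 2 and 16.1 ± 1.24 on Day 0, and Ptbp1, the repressor of neural and muscle exons, fell to 819 ± 17.8 on Day 2, against 1352 ± 79.0 on Day 0.

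Of 32 genes of the cytoplasmic actin cytoskeleton 7 were higher and 10 lower, shares near the 25.7% and 34.3% of all genes. Tagln2 and Capg, actin-binding proteins of motile cells, fell to 892 ± 165 and 1177 ± 194 on Day 2, against 2782 ± 461 and 2880 ± 249 on Day 0. Genes best known from smooth muscle rose. Tagln, transgelin, had 402, 692 and 217 on Day 2 and 33.6, 46.4 and 30.0 on Day 0 (difference 3.44, SE 0.38, adjusted p = 0.000298), and Myl9, a regulatory light chain, averaged 452 ± 149 on Day 2 and 63.8 ± 6.52 on Day 0. Acta2, smooth muscle actin, had 97.8, 122 and 80.6 on Day 2 and 2.69 to 4.50 on Day 0, so that its difference of 4.71 was 0.98 with values below 50 raised to 50. Of 5 measured smooth muscle markers 4 were higher, with a summed intensity of the list of 3416 to 4259 on Day 2 and 2410 to 2661 on Day 0. Most of this sum came from Des, desmin, which is also a listed myoblast marker and differed by only 0.28. Des averaged 2659 on Day 2 and 2193 on Day 0. Of the others on the array, Myh11, Cnn1 and Myocd were at 2 to 4 on both days. Likewise, Tnnt2 and Actc1 were higher among the listed cardiac genes, whereas Myh6, Nppa and Tnni3 were at 2 to 5 on both days. Of 13 annexins and S100 proteins, which bind calcium at membranes, 9 were lower and 1 higher, with 5 to 12 lower when an array was left out. Anxa2 and its partner S100a10 fell to 4698 ± 204 and 5169 ± 538 on Day 2, against 7960 ± 511 and 8650 ± 373 on Day 0.

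The 10 largest rises in genes whose arrays do not overlap were, besides Nid2, Bmp4 and Myh7, the genes Limch1, Jakmip1, Fbln7, Filip1, Spry1, Nrep and Ptn, with differences between 4.97 and 5.91. All stood between 2.24 and 4.64 on Day 0, near the low end of the scale, and between 110.5 and 236 on Day 2. With values below 50 raised to 50 these 7 differences lay between 1.06 and 2.19. Spry1, an inhibitor of growth factor signalling that marks resting satellite cells, had 134, 135 and 119 on Day 2 and 3.50, 6.34 and 2.25 on Day 0. Limch1, which activates non-muscle myosin, had 310, 169 and 228 on Day 2 and 7.35, 3.19 and 2.35 on Day 0. Fbln7 is a matrix protein, and Ptn, pleiotrophin, a secreted growth factor that binds heparin. Among all genes called higher, 181 had a Day 0 mean under 50, and among those called lower 71 had a Day 2 mean under 50.

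The 10 largest falls were Krt19, Lrr1, AA467197, Clca3b, Tubb3, Sprr1a, Dlx3, Celf4, Adam8 and Nefl, with differences between -4.22 and -2.68. Krt19 (Entrez 16669), a keratin of epithelia, had 8.90, 13 and 22.8 on Day 2 and 221, 266 and 293 on Day 0 (difference -4.22, SE 0.31, adjusted p = 3.89e-05, and -2.37 with values below 50 raised to 50). Sprr1a, a precursor of the cornified envelope of skin that is also induced by stress, had 93.8, 143 and 114 on Day 2 and 893, 1028 and 1059 on Day 0 (difference -3.10, SE 0.16, adjusted p = 1.02e-05). Tubb3 and Nefl, a tubulin and a neurofilament of neurons, fell to 22.4 ± 7.06 and 163 ± 96.7 on Day 2, against 194 ± 37.6 and 941 ± 75.7 on Day 0. Dlx3 is a homeobox gene of skin and bone, and Adam8 a membrane protease of leukocytes. Several of these genes are thus known from tissues other than muscle, and they were on in the confluent myoblasts.

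For 44 genes, probe sets were called in both directions, out of 2940 genes with several probe sets tested, while for 1894 some were called and all of these agreed. Tpm3, which makes slow-muscle and cytoplasmic tropomyosins from 1 gene and was picked out after its values were seen, had 5 probe sets called. The probe set counted for Tpm3 among the 16 genes of the thin filament was a higher one. Of the 5, 2 were higher, at 134 on Day 2 and 56.5 on Day 0 and at 342 on Day 2 and 173 on Day 0, and 3 were lower, the brightest of them at 4198 on Day 2 and 5445 on Day 0. The files do not say which transcripts each probe set of Tpm3 detects.

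The other time points show where Day 0 and Day 2 stand in the course of differentiation. The levels below are means of 3 arrays, ordered in time from Day -1 (50% confluency) through Day 0, Day 0.25 (6 hours after induction), Day 1, Day 2 and Day 3, and they were not tested. Myog had 404, 2621, 2428, 5499, 8322 and 9948 at these points. Myh3 had 142, 1107, 1134, 4254, 11100 and 12620, so that it was close to its later level by Day 2. Ccnb2 had 1299, 1051, 1086, 1169, 306 and 154, and its fall lay between Day 1 and Day 2. Mcm5 had 864, 400, 820, 389, 174 and 67.4, with a return at 6 hours. Bmp4 had 3.98, 3.25, 3.75, 6.92, 219 and 404, and was thus near the low end of the scale up to Day 1.

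For some genes the Day 0 level was itself a passing one. Cth had 123, 1431, 30.1, 301, 593 and 820 over the same 6 time points, a peak at confluence followed by a trough at 6 hours. Dcn had 37.7, 498, 56.2, 609, 2544 and 4011. Igf2 had 2.24, 75.8, 5.98, 109, 814 and 1288, and Cox6a2 had 2.06, 151, 2.15, 63.8, 632 and 1402. These 4 genes were higher on Day 0 than on Day -1 and at 6 hours, beyond the spread of the 3 arrays, and 3 of them passed their Day 0 level again by Day 1 or Day 2. Mest ran the other way, with 48.1, 6.25, 175, 129, 134 and 58.4. A difference between Day 2 and Day 0 therefore does not stand for a steady change over the days between.

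**Figure D4:**
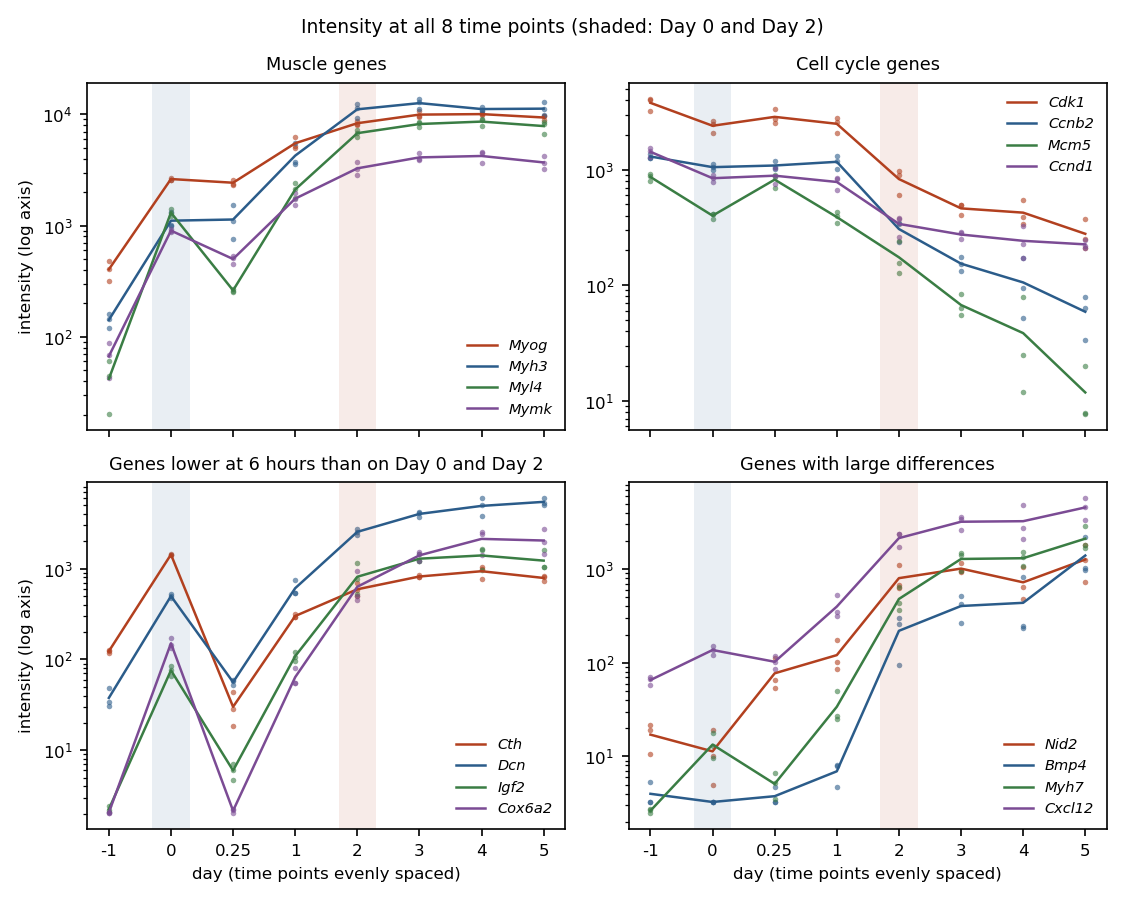
Intensity (log axis) of 16 genes at the 8 time points, with points for arrays, lines through the means of 3 arrays and shading at Day 0 and Day 2 (time points evenly spaced). Myl4, Cth, Dcn, Igf2 and Cox6a2 dip at 6 hours after induction, and Ccnb2 and Cdk1 fall between Day 1 and Day 2.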

How the data were processed

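RNA of C2C12 cultures was hybridised to Affymetrix mouse 430 2.0 arrays, 3 per time point at 8 time points, of which the 6 arrays of Day 2 and Day 0 enter the comparison. The deposited values are intensities on a linear scale, which the authors made with GC-RMA and scaled to a common trimmed mean. Their processing notes also name MAS5, with no role given. GC-RMA shrinks dim probe sets toward a common low level, so that ratios against values near 2 to 4 depend on that level. No column without a sample was used.

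The 12783 probe sets averaging 100 or more on either day were fitted on log2 intensities with limma 3.58.1 in R 4.3.3 (lmFit and eBayes, no covariates), with Benjamini-Hochberg adjustment over all of them and a threshold of 0.05. The methods of the study name the same filter, the moderated t and the choice of probe set per gene. The fit was tested on simulated data made from these arrays. There 97 of 100 changes of 1 on the log2 scale and 12 of 50 changes of 0.5 were recovered, so small changes can be missed. Far fewer probe sets were changed in the simulation than the 6543 (51.2%) called here, and the adjustment depends on that number. The recovered shares therefore do not give the share of changes missed in these data. An exact permutation test of 3 arrays against 3 cannot go below 0.1 and was not used. The number of arrays limits the precision.

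The named genes were a set list of known genes, the 10 largest rises and falls whose arrays do not overlap, together with, from every list, up to 4 called members with the lowest adjusted p and the brightest member that did not pass. The members and lists were chosen with earlier results of these data known. Alternatives changed the arrays in the fit, the filter, the normalization, low values, the prior, the threshold, the probe set per gene and the pairing, and left out each array in turn. Gene names came from the platform annotation, and promoter windows from RefSeq (GRCm38.p6).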

Additional observations from a re-analysis of the deposited data

How the results depend on the processing

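The counts of probe sets and genes called in each direction stayed within 1.5 times their values in a fit of all 24 arrays, with a trend in the prior, with a level of at least 200 or none, after quantile normalization, with a pseudocount of 16, and with values below 50 raised to 50. Asking also for a difference of at least 1 left 933 probe sets higher and 767 lower, and 646 genes higher and 581 lower. When 1 array was left out, the probe sets lower on Day 2 ran from 2309 (without Day 0 replicate 2) to 4799 (without Day 2 replicate 2), with 2394 without Day 0 replicate 3, and the genes lower from 1695 to 3198 without the same arrays. The probe sets higher ran from 1937 (without Day 0 replicate 3) to 4242 (without Day 2 replicate 2). The genes higher ran from 1325 to 2687 without those 2 arrays. The cause was not tested.

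Some list medians changed sign. With no level filter, medians became -0.01 for energy buffering (0.18 with the filter) and -0.004 for matrix proteases (0.27). Those of small heat shock proteins and cardiac markers became 0.156 (-0.31 with the filter) and -0.025 (2.05). Only 2 of the 11 cardiac markers on the array were measured with the filter. After quantile normalization medians were 0.007 for the TCA cycle and fatty acid oxidation and 0.03 for the cytoplasmic actin cytoskeleton. The median of small heat shock proteins ran from -0.336 to 0.053 when 1 array was left out. Of 705 list medians under alternatives, 88 moved by more than their spread and 610 did not. Of single genes, Mki67 ran from -0.506 to 0.099 and Flna from -0.282 to 0.053 when 1 array was left out, neither of them called with all arrays. With the probe set of highest mean level, Tpm3 was at -0.376 and Igfbp5 at 0.01, each of opposite sign to the probe set used.

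Replicate numbers gave no clear pairing of the arrays. Same-numbered arrays deviated with correlations of 0.4215, 0.1437 and -0.1249, and arrays of different numbers with -0.374 to 0.3045. With 3 arrays per day these values cannot settle whether the numbers pair. With the replicate block 2809 probe sets were higher and 3658 lower, and Pdlim3 lost its call (adjusted p = 0.0605, limma).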
